A study of Mus musculus with 11 samples.

Results

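The genes described here are the 4 mouse Fc gamma receptor genes, Fcgr1, Fcgr2b, Fcgr3 and Fcgr4, and Fcer1g, which encodes the signalling chain that the activating receptors share. They were taken by gene name and make up 5 of the 46078 genes in the deposited count table. RNA was measured in T cells sorted from the kidneys of wild type mice that had been immunised with recombinant mouse myeloperoxidase and then injected with sheep anti-mouse basement membrane globulin at a low dose. Kidneys were taken 21 days later, and each library holds cells pooled from 3 mice, so the spread between libraries is a spread between pools. The 4 groups were CD4+CD127-PD-1+ cells (n = 2, after 1 further sample failed quality control per the labels), CD4+CD127+PD-1- cells (n = 3), CD8+CD127-PD-1+ cells (n = 3) and CD8+CD127+PD-1- cells (n = 3). CD127 is the alpha chain of the IL-7 receptor, and PD-1 is an inhibitory receptor of activated T cells. Every group came from immunised and challenged mice, so no group stands for an untreated kidney. The title of the series refers to blocking the IL-7 receptor, but mice treated in that way are outside what was analysed.

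Fc gamma receptors bind the constant part of IgG and couple antibody to the cells that carry them. In the mouse, the products of Fcgr1, Fcgr3 and Fcgr4 are activating receptors that depend on the Fcer1g chain, whose ITAM (a tyrosine motif that is phosphorylated by Src family kinases) recruits the kinase Syk. The product of Fcgr2b carries an inhibitory motif (ITIM) that recruits the phosphatase SHIP1, encoded by Inpp5d, and dampens activating signals. Macrophages and monocytes carry both kinds of receptor, NK cells carry the Fcgr3 product, and Fcgr2b is the Fc gamma receptor gene of B cells. In immune complex glomerulonephritis these receptors are known chiefly as receptors of infiltrating leukocytes other than T cells.

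Of the 5 genes, 4 lie close together on chromosome 1 (GRCm38, GENCODE M21). Fcgr2b (ENSMUSG00000026656) spans bases 170958617 to 170976547 on the minus strand. Fcgr4 (ENSMUSG00000059089) spans 171018920 to 171029761 on the plus strand. Fcgr3 (ENSMUSG00000059498) spans 171051174 to 171064935 and Fcer1g (ENSMUSG00000058715) spans 171229572 to 171234365, both on the minus strand. Fcgr1 (ENSMUSG00000015947) is on chromosome 3, from 96282909 to 96293969 on the minus strand. The antisense gene Gm38204 shares 155 exon bases with Fcgr2b. It had 0 to 11 counts per library, and since the strand setting of the counting is not given in the sources used here, reads of the overlap cannot be assigned to 1 of them.

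Sequence matters here because Fcgr2b and Fcgr3 encode nearly the same extracellular part while their products signal in opposite directions. Their coding sequences were 86.7% identical over 782 aligned bases, against 64.1% to 68.6% for the other pairs of receptor genes. The longest run that both share is 129 bases, which is longer than the 75-base reads, so a read from inside it fits both genes. It starts at base 263 of the Fcgr3 coding sequence and at base 278 of the Fcgr2b coding sequence, and is printed without capitals since every base is shared.
Fcgr3 and Fcgr2b shared run: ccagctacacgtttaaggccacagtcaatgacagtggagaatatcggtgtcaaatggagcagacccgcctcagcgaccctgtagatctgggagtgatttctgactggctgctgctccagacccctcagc
Of all 75-base windows in the exons, 94 of 1733 in Fcgr3 (5.42%) also occur in Fcgr2b, and these are 1.63% of the windows of Fcgr2b. With any other gene, Fcgr2b shared 313 of its 5768 windows (5.43%). No window of Fcgr1, Fcgr4 or Fcer1g occurred in another gene. The counts of Fcgr2b and Fcgr3 are therefore uncertain for a small part of each gene, depending on how the counting treated such reads, and those of the other 3 genes are not affected. Such reads weigh more where Fcgr3 is low, since it had 8 to 19 counts per CD127+PD-1- library beside 84 to 191 of Fcgr2b. Fcgr2b reads counted for Fcgr3 could be a sizeable part of the Fcgr3 count there.

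The upstream sequences of Fcgr1, Fcgr3 and Fcgr4 are shown because these 3 genes had the largest log2 fold changes of the 5 between the sorted states described below. Each stretch is the 140 bases before a transcription start in RefSeq (GRCm38.p6), 5′ to 3′ on the gene's strand. Capitals mark matches to 2 motifs, the purine-rich PU box GAGGAA (in these 3 stretches read on the opposite strand, as TTCCTC) and the gamma-activated sequence TTCNNNGAA, searched on both strands of the 250 bases before the start.
Fcgr1, chr3:96293970-96294109, minus strand: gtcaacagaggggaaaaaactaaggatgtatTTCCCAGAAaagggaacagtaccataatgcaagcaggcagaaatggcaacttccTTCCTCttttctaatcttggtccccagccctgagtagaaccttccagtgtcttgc
Fcgr3, chr1:171059404-171059543, minus strand: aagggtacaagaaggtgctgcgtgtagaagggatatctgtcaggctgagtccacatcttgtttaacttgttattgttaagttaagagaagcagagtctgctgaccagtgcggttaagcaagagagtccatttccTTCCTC
Fcgr4, chr1:171018786-171018925, plus strand: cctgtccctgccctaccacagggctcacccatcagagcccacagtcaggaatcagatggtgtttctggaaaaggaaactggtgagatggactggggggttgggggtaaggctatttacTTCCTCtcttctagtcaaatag
The PU box was found 55 bases before the start of Fcgr1, 22 bases before that of Fcgr4, and 6 bases before the Fcgr3 start shown, while Fcgr1 also held the gamma-activated sequence 109 bases before its start. The windows of Fcgr2b and Fcer1g held neither set of letters. Among 32851 mouse promoter windows of that length, 23.3% held the PU box and 7.02% the gamma-activated sequence. A match is a description of letters and not a bound site.

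The libraries held 10.6 M to 16.1 M counts in total. Il7r, the gene of the sort marker CD127, followed the labels, at 21.3 and 16.1 CPM in the CD4 and CD8 CD127-PD-1+ cells against 385 and 367 CPM in the CD127+PD-1- cells. Cd8b1, a CD8 chain gene, was also present in the CD4 libraries and moved with the state there, at 3.86 CPM in the CD127-PD-1+ and 37.1 CPM in the CD127+PD-1- cells (-3.27 ± 0.51 on the log2 scale, SE, edgeR adjusted p = 0.0025). The other CD8 chain gene, Cd8a, measured 0.403 and 1.09 CPM in these CD4 groups, against 584 and 575 CPM in the CD8 groups. Its CD4 state change was not called (-1.43 ± 0.79, edgeR adjusted p = 0.287). CPM is the usual depth-normalised count, relative to the library total after scaling by TMM (the trimmed mean of M values). Mitochondrial ribosomal RNA took 35.7% to 40.8% of the counts of the CD8+CD127-PD-1+ libraries and 28.1% to 31.8% in the other 3 groups. Summed over 15 pan-T genes (Cd3e, Lck, Trac and others), the libraries held 2135 to 3427 CPM, with overlapping ranges in the 4 groups. Summed over 15 macrophage genes, the CD4+CD127-PD-1+ libraries held 1602 to 3222 CPM, with 1799 to 3148 in CD8+CD127-PD-1+, 304 to 530 in CD4+CD127+PD-1- and 266 to 593 in CD8+CD127+PD-1- cells, so RNA of macrophage genes was present in libraries labelled as T cells and moved with the sorted state. No macrophage gene of the list was at 0 in a whole group. In such bulk libraries, fewer cells of a type and less RNA per cell cannot be told apart.

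All 5 genes were higher in CD127-PD-1+ than in CD127+PD-1- cells, in CD4 and in CD8 cells alike. The activating receptor genes Fcgr1, Fcgr3 and Fcgr4 had log2 fold changes of 5.01 to 6.52, the inhibitory receptor gene Fcgr2b of 2.93 to 2.95, and the chain gene Fcer1g of 1.86 to 2.38. By edgeR's quasi-likelihood test with Benjamini-Hochberg adjustment over 16365 tested genes, all 5 passed the threshold of 0.05 in both comparisons. Of all tested genes, 6.81% passed as higher and 4.86% as lower in the CD4 comparison, and 9.06% as higher and 6.56% as lower in the CD8 comparison. The libraries of the 2 states did not overlap for any of the 5 genes in either lineage, which held for 21.3% of all tested genes in CD4 and 18.0% in CD8 cells in that direction. The median change of all tested genes was 0.02 in CD4 and 0.01 in CD8 cells. Without scaling beyond the library total, the CD8 median moved to -0.23 and the split of CD8 calls from 1482 higher and 1074 lower to 1069 higher and 2604 lower, and all 5 genes were still called higher.

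**Figure D1:**
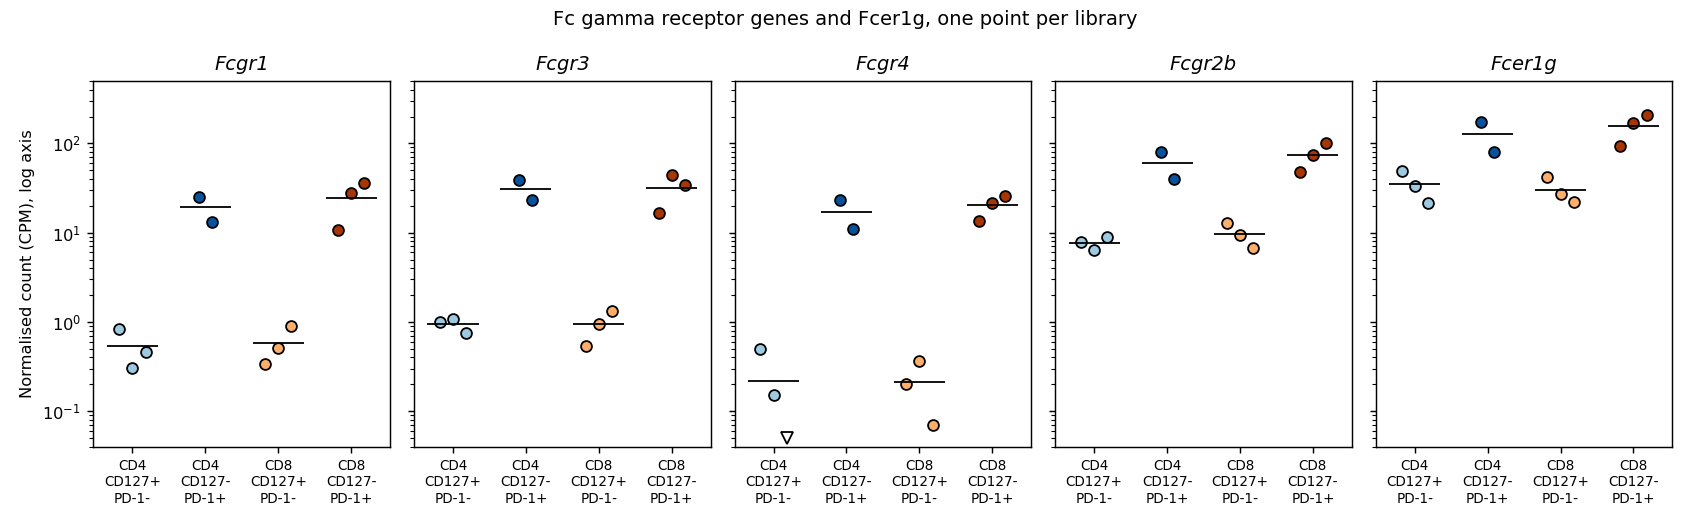
Normalised count (CPM, log axis) of each of the 5 genes in each of the 11 libraries, by sorted group, with the group mean as a line. The open triangle at the lower edge marks the CD4+CD127+PD-1- library with no Fcgr4 count, and in every panel the CD127-PD-1+ libraries sit above all CD127+PD-1- libraries of the same lineage.

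Fcgr1 encodes the high affinity IgG receptor. In CD4 cells the CD127-PD-1+ libraries measured 25.3 and 13.3 CPM, against 0.828, 0.307 and 0.465 CPM for the CD127+PD-1- libraries. In CD8 cells it measured 10.7, 27.5 and 35.5 CPM in the CD127-PD-1+ libraries and 0.336, 0.513 and 0.900 CPM in the CD127+PD-1- libraries. The low values rest on 4 to 13 counts per library, while the high ones rest on 146 to 478. The log2 fold change was 5.16 ± 0.58 (SE, edgeR adjusted p = 0.00041) in CD4 cells and 5.38 ± 0.54 (edgeR adjusted p = 0.000143) in CD8 cells.

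Fcgr3 encodes a low affinity activating receptor, the one that mouse NK cells carry. The CD4+CD127-PD-1+ libraries held 38.4 and 23.2 CPM and the CD4+CD127+PD-1- libraries 0.993, 1.07 and 0.744 CPM. The CD8+CD127-PD-1+ libraries held 16.4, 43.8 and 34.6 CPM and the CD8+CD127+PD-1- libraries 0.538, 0.952 and 1.32 CPM. Both lineages thus went from about 1 CPM to at least 16.4 CPM, with log2 fold changes of 5.01 ± 0.45 (SE, edgeR adjusted p = 0.000121) in CD4 and 5.07 ± 0.43 (edgeR adjusted p = 5.26e-05) in CD8 cells. The CD127+PD-1- values rest on 8 to 19 counts per library and may include reads that also fit Fcgr2b. Of the 6 genes in the list of NK and innate lymphoid cells that were tested, none was called in the CD4 comparison (edgeR, with 0 higher and 1 lower at an unadjusted p under 0.05), and 1, Il1rl1, was called higher in the CD8 comparison.

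Fcgr4 encodes an activating receptor that binds mainly IgG2a and IgG2b and is typical of monocytes, macrophages and neutrophils. It was the least abundant of the 5 genes in CD127+PD-1- cells, with 0.497, 0.153 and 0 CPM in the CD4 libraries and 0.202, 0.366 and 0.0692 CPM in the CD8 libraries, that is 0 to 6 counts each. A library with 0 counts allows up to 3 counts, here 0.279 CPM, and such floors cover counting error only. In CD127-PD-1+ cells it measured 23.2 and 10.9 CPM in the CD4 libraries and 13.5, 21.5 and 25.5 CPM in the CD8 libraries. The log2 fold changes, 6.20 ± 0.63 (SE, edgeR adjusted p = 0.000269) in CD4 and 6.52 ± 0.60 (edgeR adjusted p = 9.61e-05) in CD8 cells, were the largest of the 5 genes and ranked 65th and 20th among the increases of all tested genes. Because the lower groups are near the floor, the size is poorly set, and it ran from 5.56 to 7.53 in CD4 cells over the alternatives.

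Fcgr2b, the inhibitory receptor gene, was the most abundant receptor gene by counts in every library. The CD4+CD127-PD-1+ libraries held 79.5 and 39.8 CPM and the CD4+CD127+PD-1- libraries 7.87, 6.44 and 8.83 CPM. The CD8+CD127-PD-1+ libraries held 47.8, 73.2 and 100.03 CPM and the CD8+CD127+PD-1- libraries 12.9, 9.45 and 6.65 CPM. In CD127+PD-1- cells it was thus well above the floor, with 84 to 191 counts per library, where the activating receptor genes had 0 to 19. The log2 fold change was 2.95 ± 0.36 (SE, edgeR adjusted p = 0.00065) in CD4 and 2.93 ± 0.34 (edgeR adjusted p = 0.000289) in CD8 cells, with 95% intervals of 2.16 to 3.75 and 2.19 to 3.67 that lie below those of the 3 activating receptor genes.

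Fcer1g encodes the shared chain, which also serves the IgE receptor and several lectin-like receptors. In CD4 cells the CD127-PD-1+ libraries measured 173 and 80.0 CPM, against 49.4, 33.7 and 21.6 CPM for the CD127+PD-1- libraries. In CD8 cells it measured 94.5, 168 and 208 CPM in the CD127-PD-1+ libraries and 41.6, 27.2 and 21.8 CPM in the CD127+PD-1- libraries. Its increase was the smallest of the 5 genes, with a log2 fold change of 2.38 ± 0.40 (SE, edgeR adjusted p = 0.00217) in CD8 and 1.86 ± 0.42 (edgeR adjusted p = 0.0157) in CD4 cells. The CD4 call depended on single libraries. Leaving out CD4+CD127-PD-1+ replicate 1 gave a log2 fold change of 1.20 (edgeR adjusted p = 0.152). Leaving out CD4+CD127+PD-1- replicate 2 gave 1.83 (edgeR adjusted p = 0.0598), and leaving out replicate 3 of that group gave 1.62 (adjusted p = 0.0513).

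**Figure D2:**
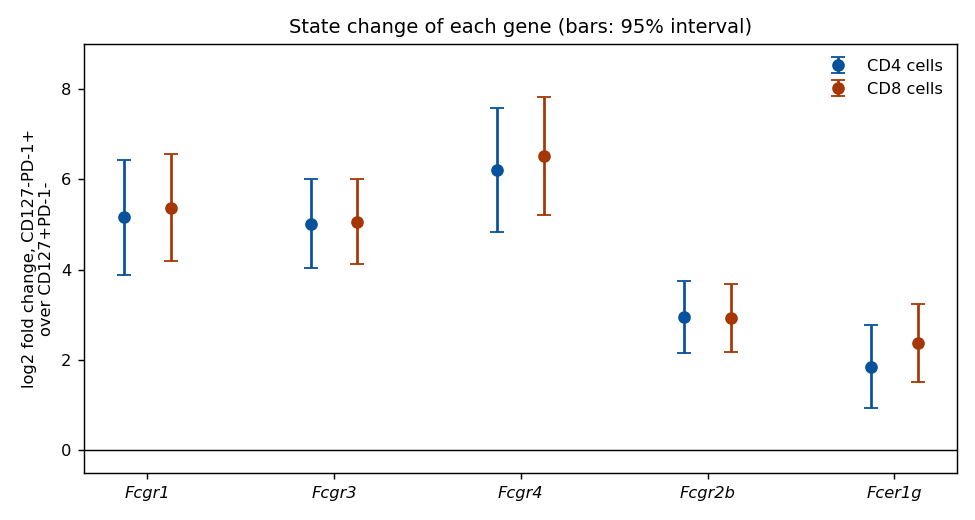
Log2 fold change of CD127-PD-1+ over CD127+PD-1- cells for each gene (points, edgeR estimate) with its 95% interval (bars), in CD4 cells (blue) and CD8 cells (red). The 2 lineages give overlapping intervals for every gene, Fcgr4 is highest at 6.20 and 6.52, and Fcer1g is lowest at 1.86 and 2.38.

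CD4 and CD8 cells of the same sorted state did not differ detectably in any of the 5 genes. In CD127-PD-1+ cells the CD4 minus CD8 log2 differences ran from -0.35 for Fcgr1 (95% interval -1.34 to 0.64, edgeR adjusted p = 0.826) to -0.04 for Fcgr3 (-0.83 to 0.76, adjusted p = 0.984). In CD127+PD-1- cells they ran from -0.33 for Fcgr2b (-1.07 to 0.42, edgeR adjusted p = 0.702) to 0.21 for Fcer1g (-0.64 to 1.05, adjusted p = 0.847). Of all tested genes, 2.44% and 4.42% were called in these comparisons, in either direction. Without scaling beyond the library total, the median of all genes in the CD127-PD-1+ comparison moved from -0.02 to 0.23 and the split of its calls from 262 higher and 138 lower to 721 higher and 115 lower, with no call among the 5 genes. Whether the state change itself differed by lineage was tested directly, and the CD4 minus CD8 difference was between -0.52 for Fcer1g (95% interval -1.77 to 0.73, edgeR adjusted p = 0.991) and 0.02 for Fcgr2b (-1.03 to 1.07, adjusted p = 1.00). In that test 0.00611% of all genes, or 1 gene, was called. None of the 5 genes was called in these 3 comparisons by edgeR, DESeq2 or limma-voom, and none had an unadjusted p under 0.05 in any of the 3 tools. The intervals reach past a 2-fold difference (1 on the log2 scale) for every gene except Fcgr3 in CD127-PD-1+ cells, and for Fcgr4 in CD127+PD-1- cells they span -1.99 to 2.15.

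Levels of different genes were compared per kilobase of exon. In CD4+CD127-PD-1+ cells Fcer1g measured 145 ± 75.3 CPM per kb (SD, n = 2), followed by Fcgr3 at 17.7 ± 6.20, Fcgr4 at 13.6 ± 6.92, Fcgr2b at 10.3 ± 4.85 and Fcgr1 at 7.44 ± 3.27. In CD8+CD127-PD-1+ cells the order was the same, with Fcer1g at 180 ± 65.9 (SD, n = 3), Fcgr3 at 18.2 ± 8.02, Fcgr4 at 16.1 ± 4.87, Fcgr2b at 12.7 ± 4.51 and Fcgr1 at 9.49 ± 4.91 CPM per kb. The chain gene stood apart there, while neighbours among the 4 receptor genes lay within each other's spread. In CD127+PD-1- cells the order changed. Fcer1g measured 39.9 ± 15.98 CPM per kb (SD, n = 3) in CD4 and 34.6 ± 11.7 in CD8 cells, and Fcgr2b came next at 1.33 ± 0.207 and 1.67 ± 0.537. Fcgr3 followed at 0.540 ± 0.0993 and 0.539 ± 0.224 CPM per kb, and Fcgr1 and Fcgr4 lay at 0.169 to 0.225 CPM per kb in both lineages and did not differ beyond their spread. The exon length of Fcgr2b is 5790 bases over all its transcripts and 1578 for the transcript with the longest coding sequence. By the latter length Fcgr2b is at 37.8 and 46.7 CPM per kb in CD4 and CD8 CD127-PD-1+ cells, above Fcgr3 at 22.9 and 23.5, so the rank of Fcgr2b depends on the transcript length used.

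The balance of inhibitory and activating receptor transcripts is free of library scaling when it is taken within a library. Fcgr2b counts per Fcgr3 count were 2.07 (95% exact binomial interval 1.87 to 2.29) and 1.72 (1.503 to 1.96) in the CD4+CD127-PD-1+ libraries. They were 2.91 (2.50 to 3.40), 1.67 (1.51 to 1.86) and 2.89 (2.60 to 3.22) in the CD8+CD127-PD-1+ libraries. The intervals cover counting error only, and the CD8 libraries differed among themselves by more than that. Reads that fit both genes are not covered, and could shift the ratio most where Fcgr3 has few counts. In the CD4+CD127+PD-1- libraries the ratio was 7.92 (4.33 to 15.9), 6 (3.38 to 11.4) and 11.9 (5.79 to 28.3), and in the CD8+CD127+PD-1- libraries it was 23.9 (11.9 to 56.1), 9.92 (5.60 to 19.1) and 5.05 (3.07 to 8.76). All 6 CD127+PD-1- libraries thus had more Fcgr2b for each Fcgr3 count than all 5 CD127-PD-1+ libraries, although the intervals of CD8+CD127+PD-1- replicate 3 and CD4+CD127+PD-1- replicate 2 start below 3.40, the highest bound among the CD127-PD-1+ libraries. Per kilobase of exon, Fcgr2b made up 20.2% to 21.4% of the transcripts of the 4 receptor genes in CD4+CD127-PD-1+ and 19.3% to 25.3% in CD8+CD127-PD-1+ cells. It made up 51.3% to 71.5% in CD4+CD127+PD-1- and 49.7% to 78.7% in CD8+CD127+PD-1- cells. With the transcript of the longest coding sequence as length, these shares were 44.8% to 47.0% and 43.5% to 52.8% in the CD127-PD-1+ groups, and 77.4% to 88.4% and 75.3% to 92.2% in the CD127+PD-1- groups. This share was described and not tested.

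**Figure D3:**
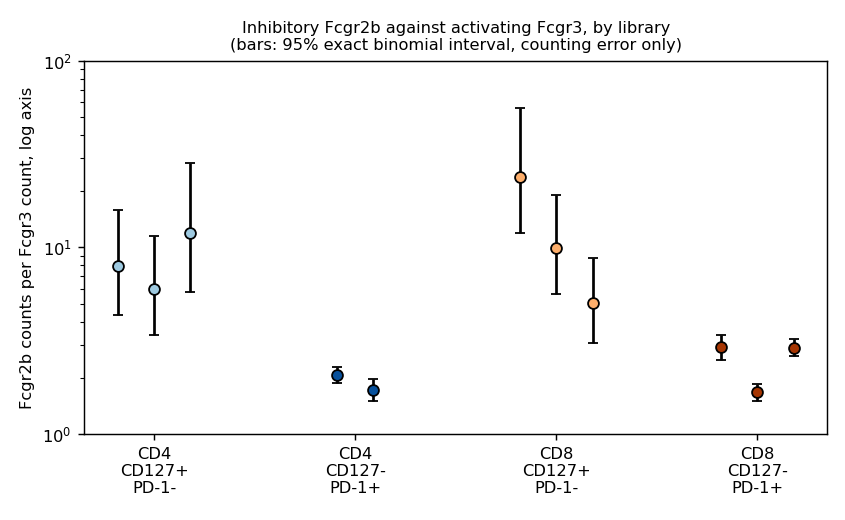
Fcgr2b counts per Fcgr3 count (log axis) in each library by sorted group, with 95% exact binomial intervals that cover counting error only and not reads that fit both genes. The 5 CD127-PD-1+ libraries lie between 1.67 and 2.91 and the 6 CD127+PD-1- libraries between 5.05 and 23.9.

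Over all libraries the 5 genes followed the sorted state together. Pearson's r of log2 CPM lay between 0.92 and 0.991 for the 10 pairs over 11 libraries, which are separated by sorted state and share their library totals. Within the 5 CD127-PD-1+ libraries r was 0.762 to 0.996. Within the 6 CD127+PD-1- libraries the genes did not vary together, with r from -0.909 (Fcgr3 and Fcgr2b) to 0.759 (Fcgr4 and Fcer1g), where Fcgr1, Fcgr3 and Fcgr4 rest on 0 to 19 counts per library. CD4+CD127-PD-1+ replicate 1 was above replicate 2 for each gene, and CD8+CD127-PD-1+ replicate 1 was below replicates 2 and 3 for each gene. The macrophage list behaved in the same way, and its summed level was 3222 CPM in CD4+CD127-PD-1+ replicate 1 against 1602 in replicate 2, and 1799 CPM in CD8+CD127-PD-1+ replicate 1, the lowest of its group.

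Genes whose log2 CPM followed the receptors most closely over the 11 libraries were genes of macrophages for the activating receptors. For Fcgr4 these were Adgre1 (r = 0.993), which encodes F4/80, Tlr4 (r = 0.993), the lipopolysaccharide receptor, and Csf1r (r = 0.992), the receptor of macrophage colony stimulating factor. For Fcgr3 they included the complement gene C1qa (r = 0.992) and Cd14 (r = 0.989), and for Fcgr1 they included Arap3 (r = 0.989) and C1qa (r = 0.987). For Fcgr2b they were Pou2f2 (r = 0.991), Ctsc (r = 0.988) and Cxcl16 (r = 0.987). For Fcer1g they included Clec7a (r = 0.988), the gene of the beta-glucan receptor Dectin-1, and Sirpa (r = 0.987). The levels show the scale of this likeness. In CD4 cells Csf1r measured 222 ± 113 CPM (SD, n = 2) in the CD127-PD-1+ and 5.52 ± 2.85 CPM (n = 3) in the CD127+PD-1- group, and 211 ± 86.4 and 6.66 ± 4.81 CPM (n = 3 each) in the matching CD8 groups.

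Set against Csf1r within each library, the genes separated into a group that kept pace and a group that did not. Fcgr1 had 0.0837 to 0.0939 counts per Csf1r count in CD4+CD127-PD-1+ and 0.0918 to 0.125 in CD8+CD127-PD-1+ libraries, inside the wider range of 0.0424 to 0.310 in CD127+PD-1- libraries. Fcgr3 had 0.121 to 0.190 counts per Csf1r count in the CD127-PD-1+ libraries and 0.0788 to 0.452 in the CD127+PD-1- libraries, which also overlap. Fcgr4 had 0.0768 and 0.0770 in CD4+CD127-PD-1+ and 0.0894 to 0.116 in CD8+CD127-PD-1+ libraries, against 0 to 0.0682 and 0.0238 to 0.0405 in the CD127+PD-1- groups, where it rests on 0 to 6 counts. Fcgr2b and Fcer1g went the other way. Fcgr2b had 0.264 to 0.412 counts per Csf1r count in the CD127-PD-1+ libraries and 0.782 to 3.96 in the CD127+PD-1- libraries. Fcer1g had 0.565 to 0.814 in the CD127-PD-1+ libraries and 2.25 to 9.67 in the CD127+PD-1- libraries. In CD127+PD-1- cells, 24 to 165 Csf1r counts per library set the precision. These ratios show unequal change and were not tested.

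**Figure D4:**
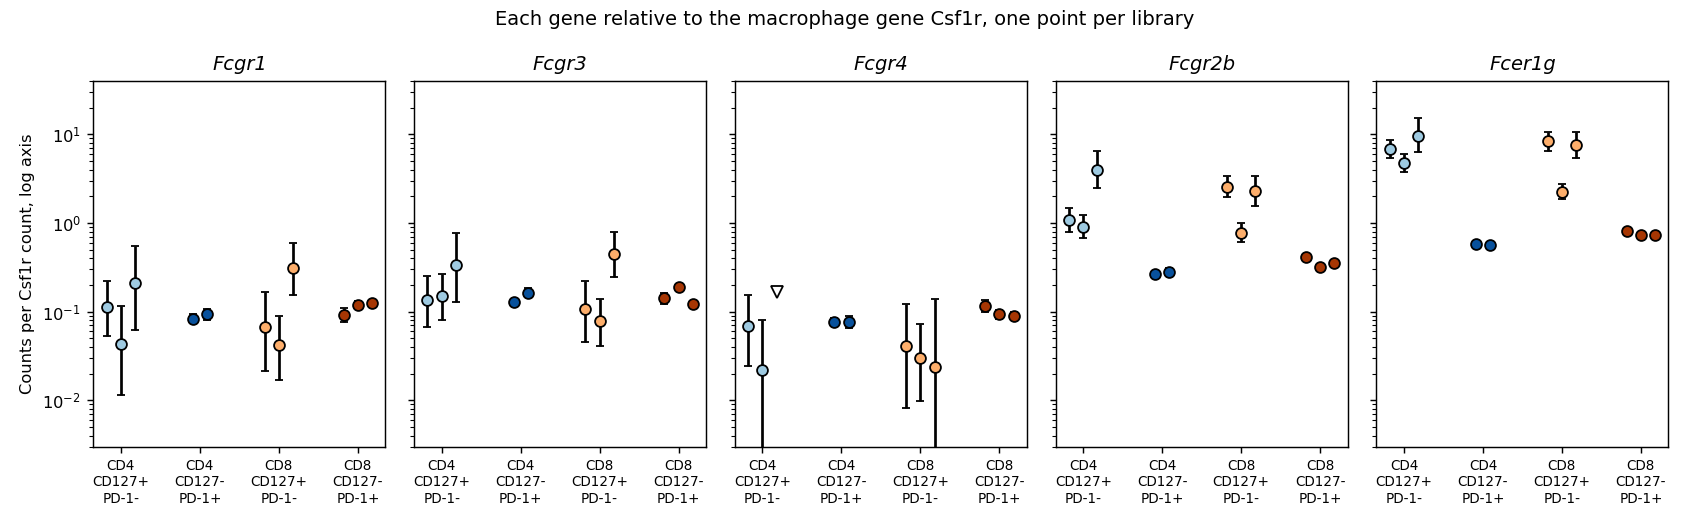
Counts of each gene per Csf1r count (log axis) in each library by sorted group, with 95% exact binomial intervals that cover counting error only; the open triangle marks the upper limit for the library with no Fcgr4 count. The Fcgr1 and Fcgr3 ranges of the 2 states overlap, while Fcgr2b and Fcer1g lie higher per Csf1r count in the 6 CD127+PD-1- libraries.

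Markers of other cells that carry these genes were measured beside them. In the macrophage list, 13 of 15 genes were called higher in each state comparison by edgeR, with medians of 5.65 in CD4 and 4.99 in CD8 cells on the log2 scale. C1qa rose by 6.63 ± 0.48 (SE) and 6.93 ± 0.47, and Apoe by 5.95 ± 0.42 and 4.88 ± 0.38. The list of plasmacytoid dendritic cell genes went the other way, with 5 of 8 called lower in CD4 and 3 of 8 in CD8 cells and none higher. Siglech, which encodes a receptor of these cells, fell by 3.86 in CD4 (edgeR adjusted p = 0.0105) and by 4.01 in CD8 cells (edgeR adjusted p = 0.00251) on the log2 scale. Summed, this list held 660 to 1391 CPM in CD4+CD127+PD-1- and 516 to 1013 in CD8+CD127+PD-1- cells against 106 to 417 and 163 to 196 in the CD127-PD-1+ groups. Plasmacytoid dendritic cell genes were thus higher in the same state as Fcgr2b per Fcgr3 or Csf1r count and Fcer1g per Csf1r count. Within CD8+CD127+PD-1- cells, replicate 1 had the highest sum of this list (1013 CPM) and the most Fcgr2b per Csf1r count (2.58). Within CD4+CD127+PD-1- cells, replicate 1 had the highest sum (1391 CPM) but 1.08 Fcgr2b counts per Csf1r count, against 3.96 in replicate 3 (751 CPM). The part of such cells in the levels of the 5 genes was not tested.

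More neutrophil and B cell genes were called in the CD8 than in the CD4 comparison. In the direct test of the difference between the 2 state changes, edgeR called none of the 6 tested neutrophil or 9 B and plasma cell genes. At an unadjusted p under 0.05, 2 and 1 of them had a lower change in CD4 than in CD8 cells. All 6 tested neutrophil genes were called higher in CD8+CD127-PD-1+ cells and 1 of 6, Csf3r, in CD4+CD127-PD-1+ cells by edgeR, against 3 of 6 and 0 of 6 by limma-voom. Summed neutrophil genes held 41.6 to 288 CPM in CD8+CD127-PD-1+, 23.8 to 34.3 in CD4+CD127-PD-1+, 3.45 to 5.48 in CD4+CD127+PD-1- and 2.63 to 17.1 CPM in CD8+CD127+PD-1- libraries. In the B and plasma cell list, 4 of 9 genes were called higher in the CD8 comparison, among them Ms4a1 with 2.78 ± 0.79 (SE, edgeR adjusted p = 0.0346). Each of the 4 was lost without CD8+CD127-PD-1+ replicate 3 and without CD8+CD127+PD-1- replicate 1 or 3, and 3 of the 4 without CD8+CD127-PD-1+ replicate 2. In the CD4 comparison 1 of 9, Mzb1, was called lower, and was not called without CD4+CD127-PD-1+ replicate 2. Summed B and plasma cell genes held 117 to 275 CPM in CD8+CD127-PD-1+ and 15.0 to 91.4 in CD4+CD127-PD-1+ libraries, while Fcgr2b, the Fc gamma receptor gene of B cells, held 47.8 to 100.03 and 39.8 to 79.5 CPM there. Of the monocyte list, 1 of 6 genes was called higher in the CD4 and 4 of 6 in the CD8 comparison. Of 3 tested mast cell and basophil genes, 1, Hdc, was called higher in CD8 cells (4.00 ± 0.65, edgeR adjusted p = 0.00177) and none in CD4 cells (0 higher and 1 lower at an unadjusted p under 0.05). Fcer1a, the IgE-binding chain that pairs with the Fcer1g chain on those cells, was at 0 in every library outside CD8+CD127-PD-1+, and had too few counts to be tested. Mcpt4, Mcpt8 and Tpsb2 of the mast cell and basophil list were at 0 in all CD8+CD127-PD-1+ libraries. Conventional dendritic cell genes gave no call among 7 by edgeR in either comparison, with 0 higher and 1 lower at an unadjusted p under 0.05 in CD4 cells and none in CD8 cells. For the monocyte list and the mast cell and basophil list, the direct test of the difference gave no call by edgeR. With no filter on low counts it called Hdc (edgeR adjusted p = 0.00529), and DESeq2 called 1 monocyte gene higher and 1 lower. The part of each of these cell types in the levels of the 5 genes was not tested.

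**Figure D5:**
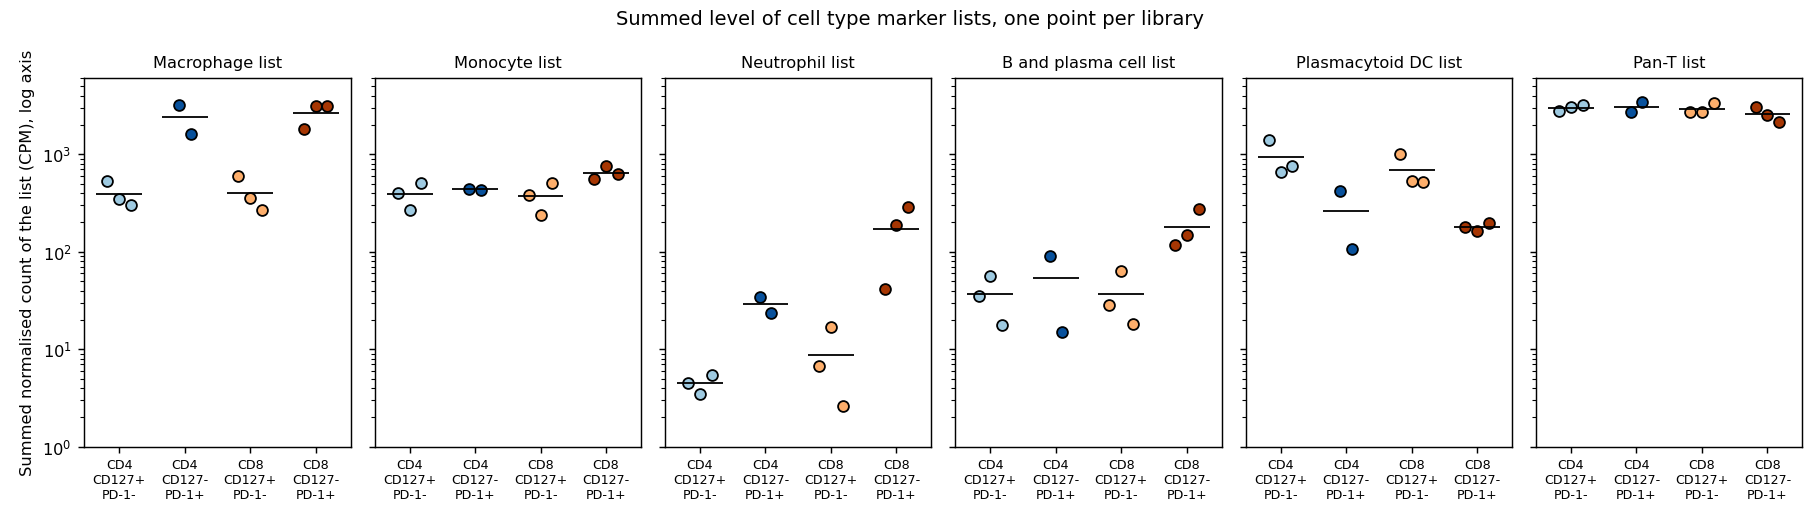
Summed normalised count (CPM, log axis) of 6 marker lists in each library by sorted group, with group means as lines. The macrophage sums of the CD127-PD-1+ libraries (1602 to 3222 CPM) lie above those of the CD127+PD-1- libraries (266 to 593 CPM), the plasmacytoid dendritic cell sums lie below them, and the pan-T sums overlap.

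Part of the other Fc receptor genes were called higher too. Of 14 such genes 10 were tested, and 2 were called higher in the CD4 and 3 in the CD8 comparison, with none lower by edgeR. At an unadjusted p under 0.05, 5 were higher and 1 lower in CD4 cells, and 5 were higher and 0 lower in CD8 cells. The medians were 0.68 and 2.56 on the log2 scale. Fcgrt, which encodes the neonatal Fc receptor that recycles IgG, measured 9.96 and 2.37 CPM in the CD127-PD-1+ and CD127+PD-1- groups of CD4 cells (a change of 2.05 ± 0.37, SE, edgeR adjusted p = 0.00512). In CD8 cells it measured 15.0 and 13.7 CPM, and was not called. Its CD127+PD-1- level was lower in CD4 than in CD8 cells by 2.51 on the log2 scale, as a difference CD4 minus CD8 of -2.51 ± 0.34 (SE, edgeR adjusted p = 0.00151). The direct test of the difference between the 2 state changes gave 1.92 ± 0.48 for Fcgrt (SE, edgeR adjusted p = 0.545, unadjusted p = 0.00173), which was not called. In that test edgeR and limma-voom called none of the 10 genes, while DESeq2 called 1 higher, and edgeR with no filter on low counts also called 1 higher. Fcrls rose by 2.98 ± 0.80 in CD4 (edgeR adjusted p = 0.0325) and 4.20 ± 0.93 in CD8 cells (edgeR adjusted p = 0.0105), from low means of 0.851 and 0.164 CPM in the CD127+PD-1- groups. Its CD4 call was lost without CD4+CD127-PD-1+ replicate 1, without CD4+CD127+PD-1- replicate 1 or 2, and with only the 2 compared groups fitted (edgeR adjusted p = 0.0614). By limma-voom neither Fcrls change was called (adjusted p = 0.0570 in CD4 and 0.0870 in CD8 cells). The other CD8 calls were Fcrl1, a B cell gene, at 2.65 ± 0.54, and Fcrl6 at 2.94 ± 0.80, which was lost without each of 5 CD8 libraries in turn. The CD8 count of 3 became 5 when either CD4+CD127-PD-1+ library was left out.

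The genes of the other adaptor chains were not called, unlike Fcer1g. Tyrobp, which encodes DAP12, the other ITAM chain of myeloid and NK cells, measured 82.6 and 91.7 CPM in the CD127-PD-1+ and CD127+PD-1- groups of CD4 cells, and 130 and 84.9 CPM in the CD8 groups. Its log2 fold changes were -0.15 ± 0.40 (SE, edgeR adjusted p = 0.866) and 0.61 ± 0.36 (adjusted p = 0.289). Hcst, which encodes DAP10, and Cd247, the zeta chain of the T cell receptor, were not called either. None of the 3 was called in the state comparisons by edgeR, DESeq2 or limma-voom, and by edgeR none had an unadjusted p under 0.05. Without scaling beyond the library total, or without CD8+CD127-PD-1+ replicate 1, 1 of the 3 was called lower in CD8 cells.

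Part of the genes of receptors that signal through the Fcer1g chain were called higher with it. Of 10 listed genes 8 were tested, and 3 were called higher in the CD4 and 6 in the CD8 comparison by edgeR, with none lower and medians of 1.71 and 4.66 on the log2 scale. By limma-voom 1 and 5 were called higher. In the direct test of the difference between the 2 state changes, edgeR and limma-voom called none of the 8 and DESeq2 called 2 lower. Lilra5, an activating receptor of the leukocyte immunoglobulin-like family, rose from 0.536 to 53.8 CPM in CD4 cells (log2 fold change 6.58 ± 0.81, SE, edgeR adjusted p = 0.00065) and from 0.751 to 44.6 CPM in CD8 cells (5.88 ± 0.74, edgeR adjusted p = 0.00043). Clec4n, which encodes Dectin-2, a receptor for fungal mannans, rose by 3.18 ± 0.72 in CD4 (edgeR adjusted p = 0.0160) and 4.35 ± 0.67 in CD8 cells (edgeR adjusted p = 0.00131). Its CD4 call was lost by limma-voom (adjusted p = 0.104). Clec4e, which encodes Mincle, a receptor for mycobacterial glycolipid and dying cells, measured 44.9 CPM in the CD8 and 3.99 CPM in the CD4 cells of the CD127-PD-1+ state, a CD4 minus CD8 difference of -3.49 ± 0.62 (SE, edgeR adjusted p = 0.0130). Clec4d differed in the same direction by -4.17 ± 0.82 (edgeR adjusted p = 0.0203), and both calls were lost when either CD4+CD127-PD-1+ library was left out, that of Clec4d also without CD8+CD127-PD-1+ replicate 2 or 3. The Clec4d call was lost as well by limma-voom (adjusted p = 0.251) and with only the 2 compared groups fitted (edgeR adjusted p = 0.0967). Without CD4+CD127-PD-1+ replicate 1 or CD4+CD127+PD-1- replicate 1, 1 of the 3 CD4 state calls was left.

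Downstream of the ITAM, part of the kinase and adaptor genes were called. Of 15 tested genes, 3 were called higher and 1 lower in the CD4 comparison, and 9 higher and 2 lower in the CD8 comparison, with medians of 0.45 and 1.22 on the log2 scale. In the direct test of the difference between the 2 state changes, edgeR, DESeq2 and limma-voom called none of the 15. By edgeR, 0 had a higher and 3 a lower change in CD4 than in CD8 cells at an unadjusted p under 0.05. The Src family kinase gene Lyn rose by 2.07 ± 0.36 (SE, edgeR adjusted p = 0.00292) in CD8 cells. Syk, named here after its values were seen because its kinase binds the phosphorylated chain, measured 40.4 and 32.8 CPM in the CD4 groups (0.30 ± 0.49, edgeR adjusted p = 0.765) and 91.4 and 26.6 CPM in the CD8 groups (1.78 ± 0.45, edgeR adjusted p = 0.0208). Card9, the adaptor below Syk, rose by 1.73 ± 0.51 in CD4 (adjusted p = 0.0478, near the threshold and lost in 14 of the alternatives) and 2.35 ± 0.47 in CD8 cells (edgeR adjusted p = 0.00582). Pik3r5, a regulatory subunit of phosphoinositide 3-kinase gamma that T cells also express, fell by 0.72 in CD4 cells (log2 scale, edgeR adjusted p = 0.00314). The CD4 count of 3 higher genes dropped to 1 without CD4+CD127-PD-1+ replicate 1 or CD4+CD127+PD-1- replicate 2, and the CD8 count of 9 dropped to 5 without CD8+CD127-PD-1+ replicate 3 or CD8+CD127+PD-1- replicate 2.

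On the inhibitory side, few genes of the phosphatases that serve the Fcgr2b product and related receptors were called. Of 5 tested genes, 1 was called higher in each comparison. None of the 5 was called by edgeR, DESeq2 or limma-voom in the direct test of the difference between the 2 state changes. Ptpn11, which encodes SHP2, rose by 0.94 ± 0.12 (SE) in CD4 cells (edgeR adjusted p = 0.000656). Inpp5d, whose product SHIP1 is the phosphatase recruited by the Fcgr2b receptor, measured 177 and 139 CPM in the CD4 groups and was not called, and 171 and 116 CPM in the CD8 groups, where it rose by 0.56 ± 0.15 (edgeR adjusted p = 0.0255). That CD8 call was lost without scaling beyond the library total (0.32, edgeR adjusted p = 0.128) and without CD8+CD127-PD-1+ replicate 1 or 3 or CD8+CD127+PD-1- replicate 2. Other inhibitory receptor genes of myeloid cells were called higher in 5 of 8 cases for CD4 and 8 of 8 for CD8 cells, with medians of 1.65 and 2.77. The direct test of the difference called none of these 8 in any of the 3 tools. Siglece, a sialic acid receptor, rose by 4.41 ± 0.57 and 4.93 ± 0.57, Clec4a2 by 4.69 ± 0.71 and 5.82 ± 0.72, and Lilrb4 by 1.56 ± 0.39 and 2.73 ± 0.38. The CD4 count of 5 fell to 2 without CD4+CD127-PD-1+ replicate 1, to 3 without CD4+CD127+PD-1- replicate 1 and to 2 without CD4+CD127+PD-1- replicate 2.

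The phagocyte oxidase, the enzyme complex that Fc receptor engagement activates, was measured through 6 genes. In CD4 cells 1 was called higher, and none without CD4+CD127-PD-1+ replicate 1. In CD8 cells 3 were called higher, among them Cybb, the catalytic subunit, by 1.68 ± 0.41 (SE, edgeR adjusted p = 0.0165), and Ncf4 by 0.77 ± 0.16 (edgeR adjusted p = 0.00698). The Cybb call was lost without CD8+CD127-PD-1+ replicate 3 or CD8+CD127+PD-1- replicate 2. None of the 6 genes was called by edgeR, DESeq2 or limma-voom in the direct test of the difference between the 2 state changes. Across the 7 lists of related genes, each comparison rests on the same libraries as the 5 Fc receptor genes, and the macrophage list moved in the same direction as each rise described here. Its part in those rises was not tested.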

How the data were processed

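RNA-seq was measured in 11 libraries of 4 sorted groups. The authors deposited raw read counts for 46078 genes. The submitters' processing notes name STAR, featureCounts and the build GRCm38; for tool versions, annotation release and strand the sources used here give nothing. The table's columns were matched to samples by label, which left out 1 column that no label names. With edgeR 4.0.16 (R 4.3.3), filterByExpr kept 16365 genes, and libraries were scaled by TMM and fitted with a mean for each group over all 11 libraries. Quasi-likelihood tests were adjusted over all tested genes (Benjamini-Hochberg, threshold 0.05). Standard errors are the fold change divided by the square root of F. The method was checked on simulated data with changes smaller than those of Fcgr1, Fcgr3 and Fcgr4, so changes of that size were not covered. Log2 CPM used a prior count of 2. Lengths come from GENCODE M21, where 45229 identifiers were found, and promoters from RefSeq. Members, gene lists and motifs were chosen with earlier results of these data known. In each comparison up to 4 called genes with the smallest p were named per list, or the most abundant where none was called, and for each member the 3 most alike genes (average log2 CPM of at least 2). Some genes that this rule selects are not reported here. Alternatives covered scaling, filter, tool (DESeq2 1.42.0, limma 3.58.1), replicate blocks and left-out libraries.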

Additional observations from a re-analysis of the deposited data

How the results depend on the processing

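The state calls of Fcgr1, Fcgr2b, Fcgr3 and Fcgr4 held in all 22 alternatives in both lineages, and those of Fcer1g in all 22 in CD8 and 19 of 22 in CD4 cells, where the count of called genes was 4 or 5 over single left-out libraries. Log2 fold changes ranged from 4.62 to 5.63 (Fcgr1), 4.61 to 5.34 (Fcgr3), 5.56 to 7.53 (Fcgr4), 2.37 to 3.38 (Fcgr2b) and 1.20 to 2.32 (Fcer1g) in CD4 cells, and from 5.01 to 5.83, 4.76 to 5.40, 6.12 to 7.11, 2.65 to 3.19 and 2.11 to 2.68 in CD8 cells, in that order. None of the 5 was called in the other comparisons in any alternative. Leaving out CD4+CD127-PD-1+ replicate 1 or 2 leaves 1 library in that group, which is then assumed to vary like the other groups. Among 3630 recomputed values of the named list genes and sort markers, 3407 stayed on the same side of the threshold, called or not, 203 lost a call, 20 gained one and 0 reversed. At least 1 alternative changed the call in 49 of 166 named results.

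Replicate numbers were not taken as a pairing, since those of the titles and of the descriptions differ for some libraries. The main tests therefore took the libraries as independent, which shared pools of mice would violate. As a description, log2 CPM less the group mean was correlated over all tested genes (Pearson's r) between libraries of different groups. Libraries with the same number in the titles had r of -0.21 to 0.32, with 7 of 15 pairs over 0.1, against 7 of 30 pairs with different numbers. For those of the descriptions r was 0.00 to 0.33, with 10 of 12 pairs over 0.1, against 4 of 33 pairs with different numbers, which is a hint of shared variation from the data and not the design. Taking off the group mean ties the libraries of a group to each other, so these pairs are not independent. With a replicate block, the Fcer1g CD4 change was 1.75 (edgeR adjusted p = 0.0239) by title and 1.94 (adjusted p = 0.0130) by description, and the block changed no call of the 5 genes. Among list genes the block by description ended the CD8 calls of Cybb (1.43, edgeR adjusted p = 0.0535), Inpp5d (adjusted p = 0.0585) and Fcrl6 (adjusted p = 0.0632), and either block ended the CD4 call of Card9. Over all genes, the block by description called 1280 higher and 883 lower in CD4 cells, against 1115 and 795 without it. In CD8 cells it called 1272 and 792, against 1482 and 1074.

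With mitochondrial genes left out of the totals, mean levels in CPM were higher, and are given here for the CD127-PD-1+ and then the CD127+PD-1- group, first of CD4 and then of CD8 cells. Fcgr1 measured 29.3, 0.827, 37.5 and 0.906, Fcgr3 46.8, 1.46, 48.2 and 1.45, and Fcgr2b 90.6, 12.0, 112 and 15.1. Fcgr4 measured 25.9 and 30.7 in the CD127-PD-1+ groups, and Fcer1g 54.2 in CD4+CD127+PD-1-, 239 in CD8+CD127-PD-1+ and 47.1 in CD8+CD127+PD-1- cells. A smaller total raises every CPM by construction. With the transcript of the longest coding sequence as length, chosen after seeing the data, the mean Fcgr2b share of receptor transcripts was 45.9%, 81.9%, 49.3% and 83.6% in the same order.

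Over all genes, state calls depended on single libraries. Without CD4+CD127-PD-1+ replicate 1 the CD4 comparison called 554 genes higher and 422 lower, against 1115 and 795, and without CD8+CD127-PD-1+ replicate 3 the CD8 comparison called 861 and 613, against 1482 and 1074. The difference between state changes called 1 gene by edgeR, 19 higher and 36 lower by DESeq2, and 27 higher and 58 lower with no filter on low counts. Over left-out libraries, 1 to 3 other Fc receptor genes were called higher in CD4 and 2 to 5 in CD8 cells, 1 to 2 and 0 to 2 phosphatase genes, and 0 to 2 and 2 to 3 oxidase genes. Depth limits Fcgr1, Fcgr3 and Fcgr4 in CD127+PD-1- cells, where 0 to 19 counts per library set their size of change.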
